A study of Mus musculus with 8 samples.

Results

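The genes described here are 48 mouse genes of the interferon response and of antigen presentation on MHC class I molecules, chosen by gene symbol. Each was represented by the probe with the highest mean over 8 arrays, and 34 of the 48 had a probe detected on at least 2 arrays. They fall into 3 roles: 26 type I antiviral genes (15 measured), 10 regulators, GTPases and a chemokine known for their response to interferon-gamma (7 measured), and 12 genes of antigen processing and MHC class I (12 measured). The arrays hold RNA from the epidermis of wild-type B6129 mice aged 7 to 8 weeks, shaved 3 days before treatment. Mice of both sexes were treated on the back with 200 µl of acetone, either alone (vehicle) or carrying 2 µg per animal of fluocinolone acetonide (FA), a synthetic glucocorticoid, and skin was taken 24 hours later. There were 2 animals in each of the 4 groups (female vehicle, female FA, male vehicle, male FA), and an array was taken as an animal. All groups share the shaving and the acetone, and no untreated skin was analysed here.

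Interferons are secreted proteins that cells release on sensing viral nucleic acid or, for interferon-gamma, that lymphocytes release. Their receptors act through JAK kinases and STAT and IRF transcription factors on overlapping sets of genes. Type I interferon induces antiviral effectors, and interferon-gamma induces GTPases that attack vacuoles holding pathogens and raises the machinery that cuts proteins into peptides and shows them to T cells on MHC class I. In skin, keratinocytes make and answer interferons, and glucocorticoids are used there against inflammation.

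Values are normalized log2 intensities, so a difference of 1 is a 2-fold change. The limma fit on 9416 genes gave each difference with a standard error (SE) and an adjusted p (Benjamini-Hochberg), and a gene was called at an adjusted p under 0.05. Between 44.5% and 46.9% of probes were detected on 7 arrays and 32.4% on female FA replicate 2, which stood apart also in its signal before normalization (median 191.2 against 99.52 to 109.3). That array is given where it decides a value. Partner arrays correlated at 0.959 to 0.990 across genes. All 7 glucocorticoid-induced check genes measured rose with FA, among them Fkbp5 by 4.01 ± 0.16 over both sexes. Of 10 keratinocyte markers measured, 9 were detected on all 8 arrays. With FA, 3 of the 10 fell (Krt1 by 3.00, Krt5 by 1.16 and Krt14 by 0.61) and 2 rose (Ivl by 0.83 and Krt15 by 0.56). Of all genes tested, 11.4% fell and 9.4% rose.

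Over both sexes (4 FA against 4 vehicle arrays), FA changed 13 of the 34 measured genes, with 20.8% of all genes tested called in either direction. The 11 that fell (32.4% of the 34, against 11.4% of all genes tested) were led by Irf1, which fell 5.71-fold, Psmb10, which fell 3.20-fold, and Gbp2, which fell 3.01-fold. The place of Gbp2 rests on female FA replicate 2, where it was not detected. Without that array Gbp2 changed by -1.24, Oasl2 by -1.44 and Usp18 by -1.38. The 2 that rose (5.88%, against 9.4% of all genes tested) were Isg20 and Irgm1. The median change was -0.30 over the 34 genes and -0.02 over all genes. Of the 34, Oasl2, Rsad2 and Irf8 were detected on vehicle arrays only and Bst2 on FA arrays only. Such genes passed the detection rule through the group in which they were higher, so the count is a description. Among the 18 genes detected on all 8 arrays, 5 had fallen and 1 had risen in this fit. A fit restricted to genes detected on all 8 arrays called 7 of the 18 lower and 3 higher. It called 36.2% of its 5648 genes in either direction, and 17.1% lower. The count of 13 was 6 without female vehicle replicate 1, male vehicle replicate 2 or either male FA array, where 10.7% to 12.7% of all genes were called. Leaving out female vehicle replicate 2 gave 7 (11.5% of all genes), male vehicle replicate 1 gave 9 (11.2%), female FA replicate 2 gave 14 (23.4%) and female FA replicate 1 gave 20 (38.1%).

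**Figure D1:**
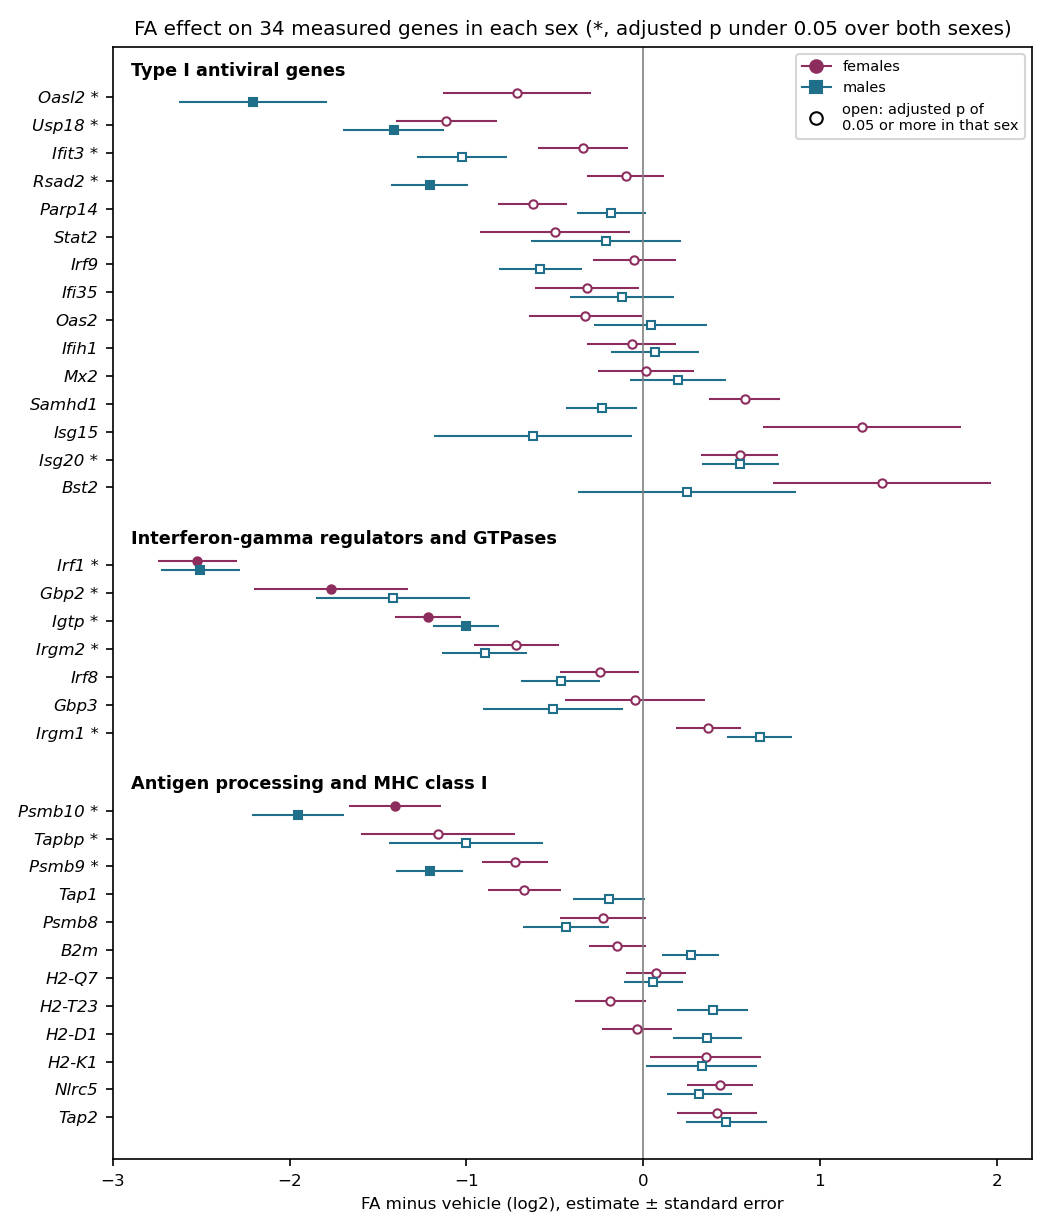
FA minus vehicle on the log2 scale for the 34 measured genes, by role, in females (circles) and males (squares), each from 2 FA and 2 vehicle arrays; bars are standard errors, filled symbols have an adjusted p under 0.05 in that sex, and asterisks mark the 13 genes called over both sexes. Irf1 lies near -2.5 in both sexes, and the class I heavy chain genes lie between -0.19 and 0.39.

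Markers of immune cells in the epidermis moved in the same samples, where 11.4% of all genes tested fell over both sexes and 9.4% rose. Of 11 measured markers of Langerhans and dendritic cells, 9 fell and 1 rose, with a median of -2.06. Their mean level ran from 9.10 to 9.33 on vehicle arrays and from 7.15 to 7.73 on FA arrays. Most of this list is MHC class II presentation genes (Cd74, H2-Ab1, H2-Aa, H2-Eb1, H2-DMa, H2-DMb1 and Ciita), which changed by -3.10 to -2.02. The rest changed less: Cd207 fell by 0.94 and Mfge8 by 0.97, Ctss gave -0.55 (not called) and Cd86 rose by 0.55. None of the 11 was undetected on all FA arrays, though Ciita was detected on 1 of the 4. Of 12 markers of dendritic epidermal T cells, a resident T cell of mouse skin and a source of interferon-gamma, 7 fell and none rose (7.12 to 7.46 under vehicle, 6.51 to 6.85 under FA). Of 10 fibroblast markers 4 fell, with mean levels of 6.77 to 8.74 under vehicle and 5.83 to 7.27 under FA. Among 7 macrophage, neutrophil and mast cell markers 3 fell and 2 rose, and none of 3 endothelial markers was called. None of 10 skeletal muscle markers was called over both sexes, but their mean level ran from 6.93 to 8.98 under vehicle and from 5.43 to 10.83 under FA. Their median change was -1.64 in females and 1.38 in males (1 called higher there). In their FA effect 9 of 10 differed between the sexes at an unadjusted limma p under 0.05, against 6.56% of all genes tested. None of the 10 did so after adjustment. The part of these cells in the changes below was not tested, and in whole epidermis fewer cells of a type cannot be told apart from less RNA per cell.

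**Figure D2:**
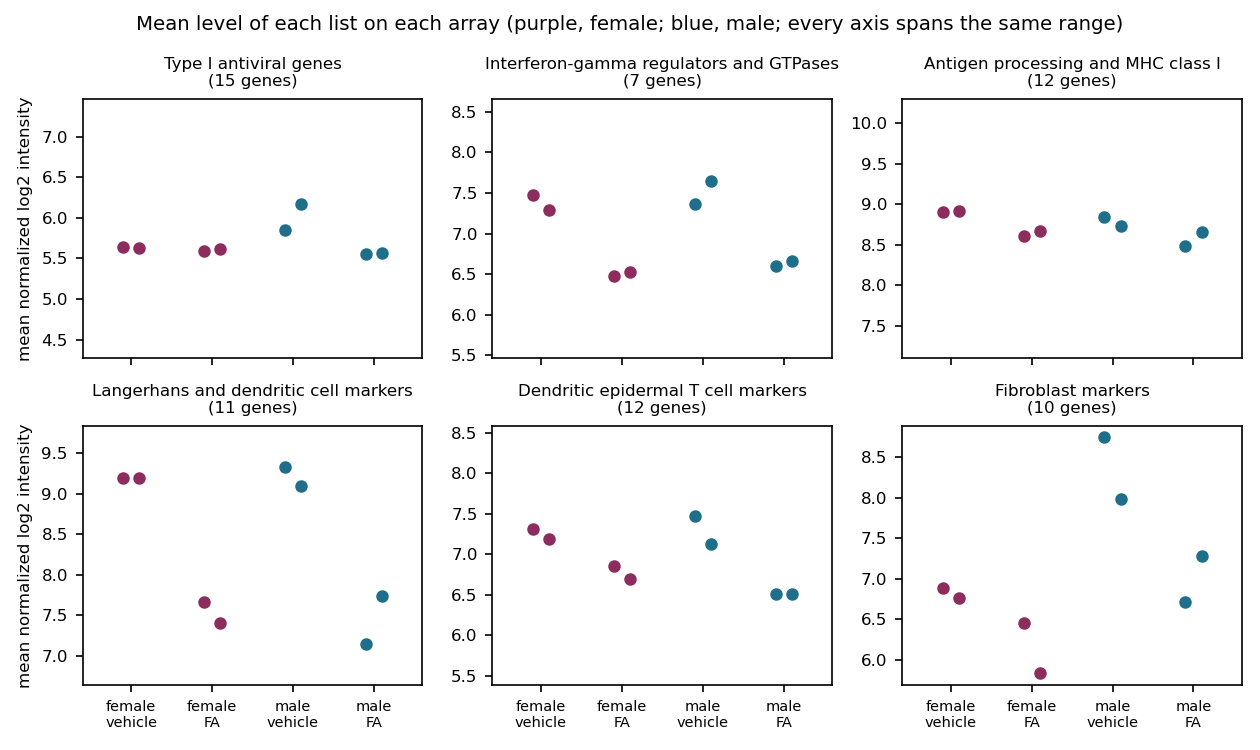
Mean normalized log2 intensity of the measured genes of each list on each of the 8 arrays; each point is an array and every vertical axis spans the same range. The 3 role groups and the Langerhans and T cell markers are lower on all 4 FA arrays than on any vehicle array. The margin is narrow for antigen processing (at most 8.66 under FA, at least 8.73 under vehicle) and for the antiviral group (5.62 and 5.63). The antiviral group is highest on the 2 male vehicle arrays, and the fibroblast markers overlap.

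Transcription factors of the pathway were led by Irf1, which interferon-gamma induces and which activates genes of antigen processing and antiviral defence. Irf1 read 9.70 and 9.37 in female vehicle, 6.98 and 7.05 in female FA, 10.05 and 9.64 in male vehicle, and 7.15 and 7.53 in male FA. Every FA array was below every vehicle array, by more than the spread within any group. The change over both sexes was -2.51 ± 0.16 (adjusted p = 1.26e-04), the largest of the 34 genes in size. A second Irf1 probe gave -2.20. The call held in each of 18 alternatives, between -2.62 and -1.96.

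The other transcription factors were not called. Irf9 and Stat2, the partners that carry the type I signal to the nucleus, gave -0.32 ± 0.17 (adjusted p = 0.221) and -0.36 ± 0.30 (0.440). A dimmer second Irf9 probe gave 0.03. Irf8, a factor of dendritic cells and macrophages, gave -0.36 ± 0.16 (0.156) and was detected on 3 of 4 vehicle arrays and on no FA array. Nlrc5, the activator of MHC class I genes, was detected on all 8 arrays and gave 0.38 ± 0.13 (0.0819). Its arrays ran from 9.06 to 9.53 under vehicle and from 9.47 to 9.89 under FA, so the groups overlapped slightly. In the fit restricted to genes detected on all 8 arrays it was called higher (adjusted p = 0.0370).

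The GTPases of the interferon-gamma response attack vacuoles that hold bacteria and parasites. Gbp2, a guanylate-binding protein, read 7.07 and 6.83 in female vehicle, 5.88 and 4.49 in female FA, 6.69 and 7.39 in male vehicle, and 5.68 and 5.57 in male FA. Its change was -1.59 ± 0.31 (adjusted p = 0.0120). The lowest value was on female FA replicate 2, where Gbp2 was not detected, and without that array the change was -1.24. The groups did not overlap with or without it. The call was lost, at adjusted p of 0.0506 to 0.0572, without female vehicle replicate 1, male vehicle replicate 2 or male FA replicate 2. Gbp3, its neighbour in the family, gave -0.28 ± 0.28 (adjusted p = 0.519) and was detected on 5 arrays.

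The immunity-related GTPases Igtp and Irgm2 also fell. Igtp read 6.63 and 6.36 in female vehicle, 5.20 and 5.35 in female FA, 6.74 and 6.90 in male vehicle, and 5.95 and 5.68 in male FA. All FA arrays were below all vehicle arrays, and the change was -1.11 ± 0.13 (adjusted p = 0.00152), a 2.16-fold fall that held in each of 17 alternatives. Igtp was not detected on female FA replicate 2, without which it was -1.15. Irgm2, a regulator of this family, read 7.23 and 7.13 in female vehicle, 6.12 and 6.80 in female FA, 7.11 and 7.25 in male vehicle, and 6.19 and 6.38 in male FA. It was lower on every FA array and fell 1.75-fold (-0.81 ± 0.17, adjusted p = 0.0162). The Irgm2 call was lost without either female vehicle array, either male vehicle array or male FA replicate 1, at adjusted p of 0.0522 to 0.0690.

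Irgm1, a regulator of the same family, moved the other way. It read 11.49 and 11.12 in female vehicle, 11.77 and 11.58 in female FA, 11.04 and 10.98 in male vehicle, and 11.71 and 11.63 in male FA. Its FA arrays lay above its vehicle arrays, closely in females, and it rose 1.43-fold (0.51 ± 0.13, adjusted p = 0.0314). A dimmer second probe gave 0.12, and with the mean of both probes the change was 0.31 (adjusted p = 0.164). The call was lost without female vehicle replicate 2, either male vehicle array or either male FA array, at adjusted p of 0.0831 to 0.106. The change of Irgm2 was lower than that of Irgm1 by 1.32 ± 0.22, a pair set side by side after its values were seen and so given as a description only. The chemokine Cxcl10 and the GTPases Iigp1 and Gbp6 had no probe that passed the detection rule and are not analysed here.

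Promoters are shown for the 4 called genes with the largest changes among those that carry known interferon-response letters close to their start, and for the GTPase that rose. Psmb10, Oasl2, Tapbp and Psmb9, which changed by more than Irgm2, held neither motif in their windows. Usp18, which also changed by more than Irgm2, either held neither motif or had no promoter entry. Sequences are from RefSeq on build GRCm38.p6 and run 5′ to 3′ on the gene's strand, from 250 bases before the start to 50 after it. Capitals mark GAAANNGAA, the core of the interferon-stimulated response element bound by IRF factors, or TTCNNNGAA, the palindromic gamma-activated site of interferon-gamma-induced genes. Both strands were searched, and TTCACTTTC in Gbp2 is GAAANNGAA on the opposite strand. Irf1 is at chr11:53769764-53770063 (+), Gbp2 at chr3:142620413-142620712 (+), Igtp at chr11:58199306-58199605 (+), Irgm2 at chr11:58214727-58215026 (+) and Irgm1 at chr11:48871371-48871670 (-).
Irf1: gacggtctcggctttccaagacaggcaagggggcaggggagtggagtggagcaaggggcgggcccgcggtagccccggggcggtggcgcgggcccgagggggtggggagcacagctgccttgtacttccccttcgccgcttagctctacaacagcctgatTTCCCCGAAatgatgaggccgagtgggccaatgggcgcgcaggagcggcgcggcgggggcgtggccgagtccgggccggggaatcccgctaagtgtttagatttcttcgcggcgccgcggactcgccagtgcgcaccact
Gbp2: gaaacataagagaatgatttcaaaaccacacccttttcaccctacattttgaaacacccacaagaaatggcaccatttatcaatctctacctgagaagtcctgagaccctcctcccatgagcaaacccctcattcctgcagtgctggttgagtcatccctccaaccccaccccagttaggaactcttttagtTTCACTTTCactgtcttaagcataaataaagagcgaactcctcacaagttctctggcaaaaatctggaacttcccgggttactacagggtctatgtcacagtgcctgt
Igtp: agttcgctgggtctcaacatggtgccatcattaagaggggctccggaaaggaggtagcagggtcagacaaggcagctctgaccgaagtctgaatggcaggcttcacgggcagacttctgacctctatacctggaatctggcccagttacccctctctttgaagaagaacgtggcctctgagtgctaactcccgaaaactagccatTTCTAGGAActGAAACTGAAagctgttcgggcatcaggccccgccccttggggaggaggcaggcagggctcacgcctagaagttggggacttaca
Irgm2: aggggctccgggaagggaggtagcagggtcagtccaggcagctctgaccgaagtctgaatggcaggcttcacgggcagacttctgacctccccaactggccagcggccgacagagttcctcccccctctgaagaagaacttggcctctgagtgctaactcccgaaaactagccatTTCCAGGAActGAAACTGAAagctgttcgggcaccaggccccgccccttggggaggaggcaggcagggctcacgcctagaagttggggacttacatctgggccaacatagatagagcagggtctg
Irgm1: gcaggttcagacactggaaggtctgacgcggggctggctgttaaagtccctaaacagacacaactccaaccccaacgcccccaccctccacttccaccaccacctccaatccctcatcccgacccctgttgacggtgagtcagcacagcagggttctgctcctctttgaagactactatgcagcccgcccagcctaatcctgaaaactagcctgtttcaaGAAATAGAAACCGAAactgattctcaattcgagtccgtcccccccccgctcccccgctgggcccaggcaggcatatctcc

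Irf1 held TTCCCCGAA beginning 90 bases before its start and no GAAANNGAA in this window. Gbp2 held its match 58 bases before the start. Igtp and Irgm2 held both motifs side by side and without overlap, with TTCTAGGAA and GAAACTGAA at 45 and 34 bases before the start of Igtp and TTCCAGGAA and GAAACTGAA at 75 and 64 bases before that of Irgm2. Their windows, which start 15421 bases apart, share an unbroken run of 61 bases. The window of Irgm1, shown after the values were seen, held GAAATAGAA and GAAACCGAA, which overlap, at 30 and 24 bases before the start and no TTCNNNGAA. GAAANNGAA was thus held by Gbp2, Igtp and Irgm2, which fell, and by Irgm1, which rose.

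Of the 48 genes, 39 had a promoter entry. GAAANNGAA was found for 19 of the 39, against 8.56% of 32851 promoters of the same length, and TTCNNNGAA for 11 of the 39, against 8.30%. By role, GAAANNGAA was held by 11 of 21 antiviral genes, 6 of 8 gamma-group genes and 2 of 10 antigen-processing genes (B2m and H2-T23), and TTCNNNGAA by 6 of 21, 4 of 8 and 1 of 10. A match describes letters in a window and is not evidence of binding.

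Among type I antiviral genes, 4 of the 15 measured fell and 1 rose, beside 11.4% and 9.4% of all genes tested, with a median of -0.22. Usp18, which removes the ubiquitin-like ISG15 from proteins and restrains the type I receptor, read 7.28 and 7.34 in female vehicle, 5.97 and 6.42 in female FA, 7.23 and 7.78 in male vehicle, and 5.79 and 6.40 in male FA. Its groups did not overlap. It fell 2.40-fold (-1.26 ± 0.20, adjusted p = 0.00555), a call that held in each of 18 alternatives, and a second probe gave -1.01. Oasl2, an oligoadenylate synthetase-like antiviral protein, read 5.55 and 5.03 in female vehicle, 4.62 and 4.53 in female FA, 6.10 and 7.51 in male vehicle, and 4.62 and 4.58 in male FA. It was detected on all 4 vehicle arrays and on no FA array, with the male vehicle arrays highest. It was at least 1.83-fold lower with FA (fitted change -1.46 ± 0.30, adjusted p = 0.0144). The Oasl2 call was lost without female vehicle replicate 1 or either male FA array (adjusted p of 0.0514 to 0.0663) and with values below the array floor set to it (-0.87, adjusted p = 0.0936).

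Ifit3, which binds viral RNA with its relatives, and Rsad2, the enzyme viperin, had signal mainly in males given vehicle. Ifit3 read 4.84 and 5.06 in female vehicle, 4.73 and 4.49 in female FA, 5.70 and 6.34 in male vehicle, and 4.82 and 5.17 in male FA. Its FA and vehicle arrays overlapped, and it was at least 1.19-fold lower (-0.68 ± 0.18, adjusted p = 0.0355). Rsad2 read 4.50 and 4.55 in female vehicle, 4.38 and 4.46 in female FA, 5.38 and 5.96 in male vehicle, and 4.56 and 4.36 in male FA. It was detected only on the 2 male vehicle arrays, and its fitted change of -0.65 ± 0.15 (adjusted p = 0.0237) carries no fold over both sexes. Both calls were lost without either female vehicle array, male vehicle replicate 2 or either male FA array, at adjusted p of 0.0645 to 0.120 for Ifit3 and 0.0569 to 0.0862 for Rsad2. With values set to the array floor, Ifit3 was at -0.27 and Rsad2 at -0.11, and neither was called. Median scaling also ended both calls (Ifit3 -0.47, adjusted p = 0.234, and Rsad2 -0.40, adjusted p = 0.301), and the Ifit3 call was lost without background correction (adjusted p = 0.0598) and without the detection filter (0.0618).

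Isg20, an exonuclease that degrades viral RNA, was the antiviral gene that rose. It read 4.79 and 4.84 in female vehicle, 5.49 and 5.23 in female FA, 5.07 and 4.68 in male vehicle, and 5.22 and 5.62 in male FA. The FA arrays were above the vehicle arrays by a narrow margin, and Isg20 was detected on 1 vehicle and 3 FA arrays. It was at least 1.34-fold higher (0.55 ± 0.15, adjusted p = 0.0440), and the call was lost without any of 6 arrays (each vehicle and each male FA array), at adjusted p of 0.0536 to 0.147. It was lost too without background correction (0.18, adjusted p = 0.127), without the detection filter, with array weights, with an intensity trend and with the replicate block (adjusted p of 0.0550 to 0.0652 for these 4), and was made in 6 of 17 alternatives.

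Bst2, tetherin, which holds budding virus on the cell surface, and Isg15, the ubiquitin-like modifier, were high on 1 array. Bst2 read 4.68 and 4.48 in female vehicle, 4.81 and 7.06 in female FA, 4.79 and 4.91 in male vehicle, and 5.28 and 4.91 in male FA. Its change of 0.80 ± 0.44 (adjusted p = 0.240) was 0.23 without female FA replicate 2, and it was called (1.36) when female FA replicate 1 was left out instead. Isg15, singled out after its values were seen, read 6.94 on female FA replicate 2 and 4.64 to 5.51 on the 7 other arrays, for a change of 0.31 ± 0.40.

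The rest of the antiviral group was not called. Parp14, an ADP-ribosyltransferase, gave -0.40 ± 0.14 (adjusted p = 0.0778), with every FA array (6.76 to 7.14) below every vehicle array (7.26 to 7.72). It was called lower in the fit restricted to genes detected on all 8 arrays (adjusted p = 0.0347). Samhd1, which depletes the nucleotides that viruses need, gave 0.17 ± 0.14, and a dimmer second probe gave -0.17. Ifi35 gave -0.22, Oas2 -0.14, Mx2 0.10 and the RNA sensor Ifih1 0.00. The 95% interval of Ifih1 ran from -0.41 to 0.42, and it was detected on 2 arrays. Ifit1, Ifit2, Oas1a, Oas3, Oasl1, Mx1, Irf7, Ifi44, Xaf1, Trim30a and Dtx3l had no probe that passed the detection rule and are not analysed here.

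**Figure D3:**
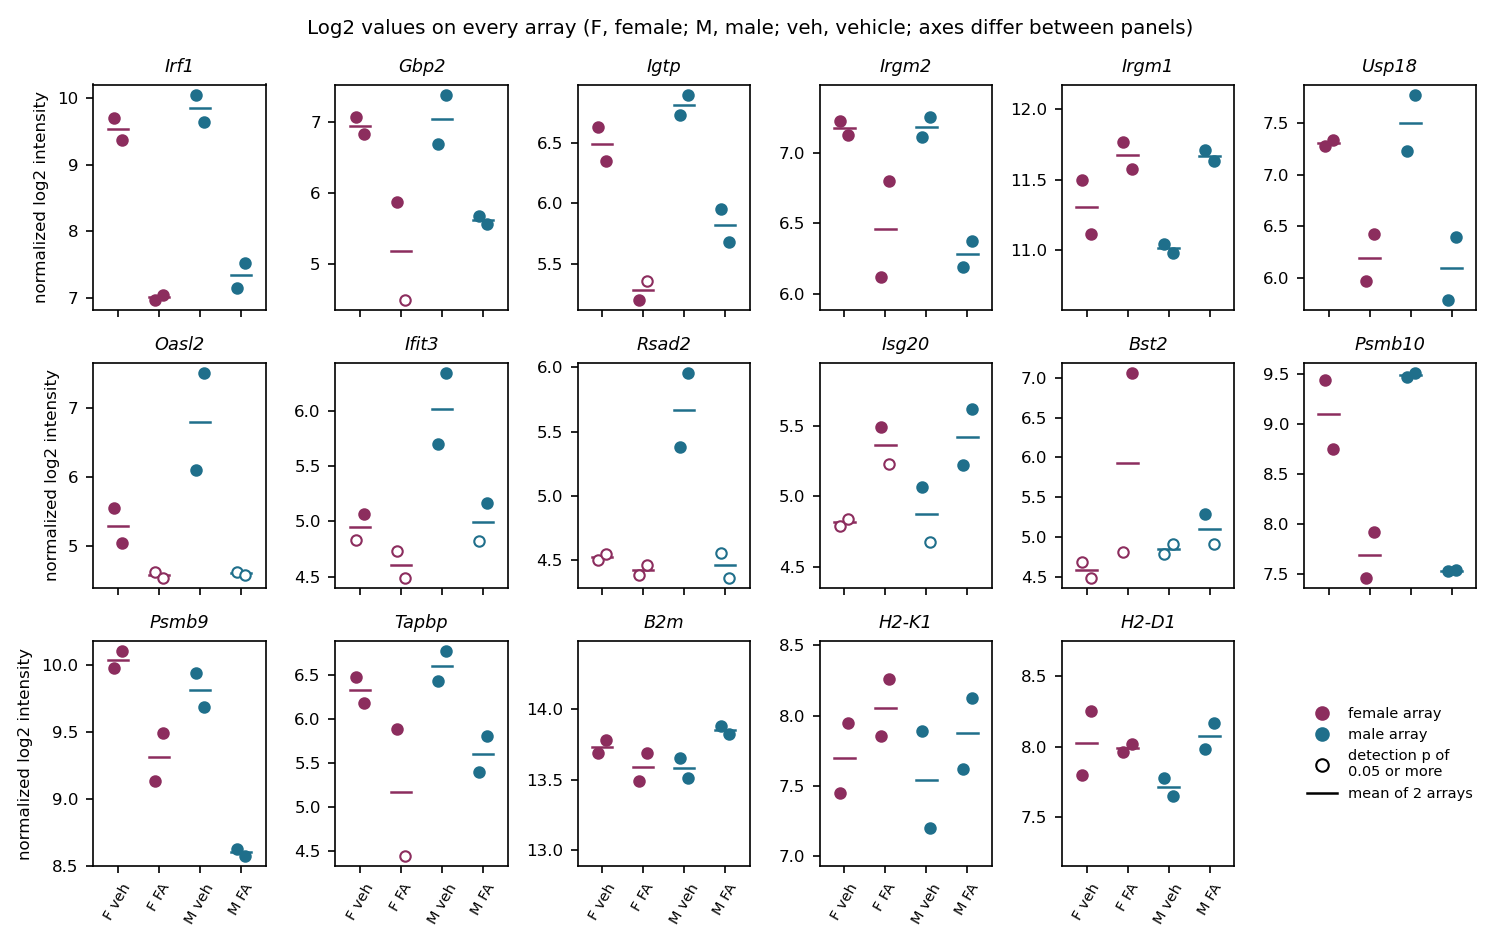
Normalized log2 intensity on every array for the 17 genes given array by array; points are arrays, horizontal bars are the means of 2 arrays, and open points have a detection p of 0.05 or more. Irf1, Psmb10, Psmb9 and Usp18 separate FA from vehicle in both sexes, Rsad2 is raised only in male vehicle, and Bst2 on 1 female FA array.

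In antigen processing, 3 of 12 genes fell and none rose, beside 11.4% and 9.4% of all genes tested. Those that fell were Psmb10, Psmb9 and Tapbp. The immunoproteasome replaces the 3 catalytic subunits of the standard proteasome with Psmb8, Psmb9 and Psmb10. Psmb10 read 9.44 and 8.75 in female vehicle, 7.46 and 7.92 in female FA, 9.47 and 9.51 in male vehicle, and 7.53 and 7.54 in male FA. Psmb9 read 9.98 and 10.10 in female vehicle, 9.13 and 9.49 in female FA, 9.94 and 9.68 in male vehicle, and 8.63 and 8.57 in male FA. For both genes all FA arrays were below all vehicle arrays. Psmb10 fell by 1.68 ± 0.18 (adjusted p = 0.00112) and Psmb9 fell 1.95-fold, by 0.97 ± 0.13 (0.00303), and both calls held in each of 18 alternatives. A second Psmb10 probe gave -1.92. Psmb8 gave -0.33 ± 0.17 (adjusted p = 0.219), with overlapping groups.

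The standard subunits that these replace were compared after the values were seen, so the differences are given as a description only. Psmb10 fell by more than Psmb7, its standard counterpart, which fell by 0.44 ± 0.13, and the difference between them was -1.24 ± 0.19. Psmb6, the counterpart of Psmb9, fell by 0.55 ± 0.13, and the difference between them was -0.42 ± 0.49 over both sexes, 0.28 in females and -1.11 in males. Psmb8 and its counterpart Psmb5 (-0.19, not called) differed by -0.14 ± 0.33.

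For peptide transport into the endoplasmic reticulum, the transporter subunits Tap1 and Tap2 were not called and lay on opposite sides of 0. Tap1 gave -0.43 ± 0.14 (adjusted p = 0.0736), from 8.02 to 8.55 under vehicle and from 7.55 to 8.01 under FA. Tap2 gave 0.44 ± 0.16 (adjusted p = 0.0926), with overlapping arrays. In the fit restricted to genes detected on all 8 arrays, Tap1 was called lower (adjusted p = 0.0322) and Tap2 higher (0.0433). The starts of Tap1 and Psmb9 lie on opposite strands of chromosome 17, and their promoter windows share 275 of 300 bases, in which neither motif was found. Tapbp, tapasin, which bridges the transporter to MHC class I, read 6.48 and 6.18 in female vehicle, 5.89 and 4.44 in female FA, 6.44 and 6.77 in male vehicle, and 5.39 and 5.81 in male FA. It fell 2.12-fold (-1.08 ± 0.31, adjusted p = 0.0457), and was not detected on female FA replicate 2, its lowest array. Without that array the change was -0.72, a second probe gave -0.12, and the call was lost without any of the 4 vehicle or 2 male FA arrays (adjusted p of 0.0923 to 0.148), without the detection filter (0.0968) and with the replicate block (0.0616).

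B2m and the 4 heavy chain genes among the 48 were not called. B2m, the light chain shared by all of them, read 13.69 and 13.78 in female vehicle, 13.49 and 13.69 in female FA, 13.65 and 13.51 in male vehicle, and 13.88 and 13.82 in male FA. Its groups overlapped, and its change was 0.06 ± 0.11, with a 95% interval from -0.21 to 0.33. H2-K1, a classical heavy chain, read 7.45 and 7.95 in female vehicle, 7.85 and 8.26 in female FA, 7.89 and 7.20 in male vehicle, and 7.62 and 8.13 in male FA. Its arrays overlapped too, for a change of 0.34 ± 0.22 and an interval from -0.18 to 0.86. H2-D1, the other classical chain measured, read 7.80 and 8.25 in female vehicle, 7.97 and 8.02 in female FA, 7.78 and 7.65 in male vehicle, and 7.98 and 8.17 in male FA, for 0.16 ± 0.14 and an interval from -0.16 to 0.49. The non-classical H2-Q7 and H2-T23 gave 0.07 ± 0.12 and 0.10 ± 0.14. The lowest bound of these 5 intervals was -0.23. Dimmer second probes gave 0.42 for H2-T23, 0.16 for B2m and -0.06 for H2-K1. The difference between Psmb10 and B2m was -1.74 ± 0.26, a pair also chosen after the values were seen. Heavy chain genes are near-identical in places, and probe sequences were not used here, so signal could be split among them.

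**Figure D4:**
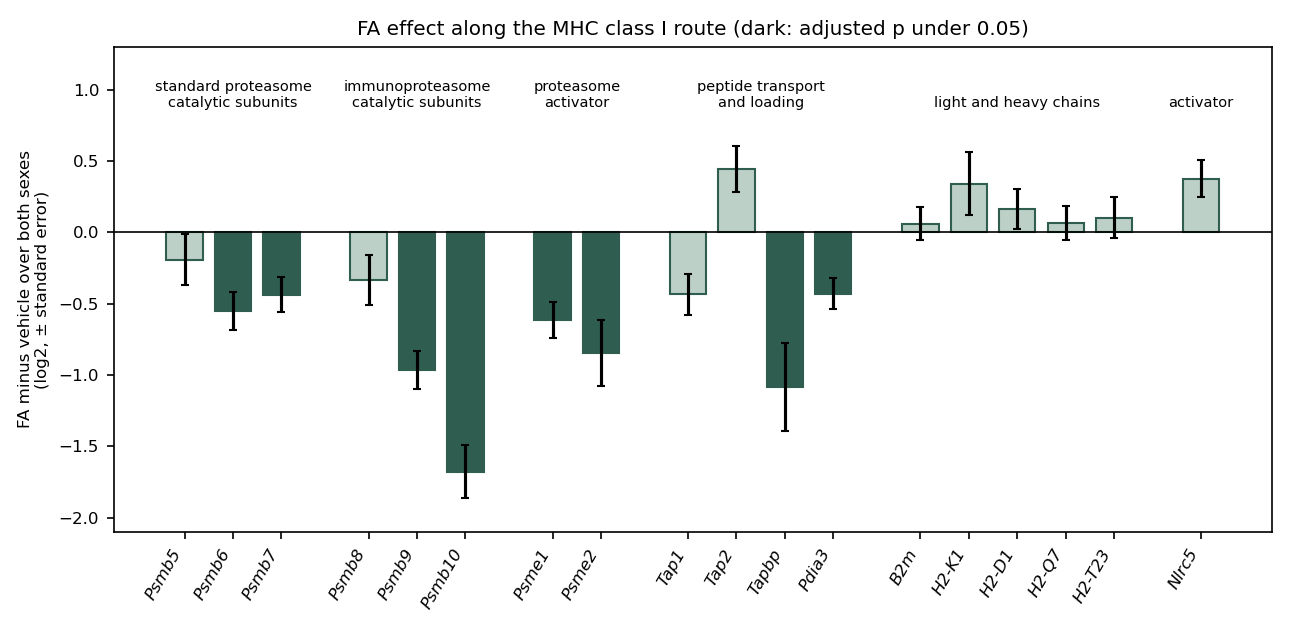
FA minus vehicle over both sexes (log2, bars, with standard errors) for genes along the MHC class I route, from proteasome subunits through peptide loading to the light and heavy chains; dark bars have an adjusted p under 0.05. Psmb6, Psmb7, Psmb9, Psmb10, Psme1, Psme2, Tapbp and Pdia3 are dark and below 0, Psmb5, Psmb8 and Tap1 are pale and below 0, and Tap2 is pale and above 0. B2m and the heavy chains drawn (H2-K1, H2-D1, H2-Q7 and H2-T23) lie between 0.06 and 0.34. Not drawn are H2-T10, which fell (-0.94), and H2-M3 (-0.45), H2-Q8 (-0.38) and H2-Q5 (-0.08), which were not called.

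Set side by side, the antiviral and antigen-processing groups differed in detection. All but Tapbp of the 12 antigen-processing genes were detected on all 8 arrays, against 4 of the 15 antiviral genes and 3 of the 7 gamma-group genes, and 59.7% of all genes tested. The medians over both sexes were -0.22 for antiviral genes, -0.81 for the gamma group and 0.06 for antigen processing, and -0.02 for all genes. By sex, the antigen-processing median was -0.17 in females and 0.16 in males, and the antiviral median -0.10 and -0.21. Mean levels of both groups were lower on every FA array. Antiviral genes ran from 5.63 to 6.18 under vehicle and 5.56 to 5.62 under FA, and antigen-processing genes from 8.73 to 8.92 and 8.48 to 8.66. The counts called in either direction were 5 of 15, 5 of 7 and 3 of 12, beside 20.8% of all genes tested. Without female FA replicate 2 the antiviral median was 0.00 (5 lower, 1 higher), the gamma-group median -0.98 (4 lower, 1 higher) and the antigen-processing median 0.04 (3 lower). The antiviral median was 0.10 with values set to the array floor and -0.01 with median scaling, so its sign was not the same under all alternatives. The difference between the groups was not tested.

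**Figure D5:**
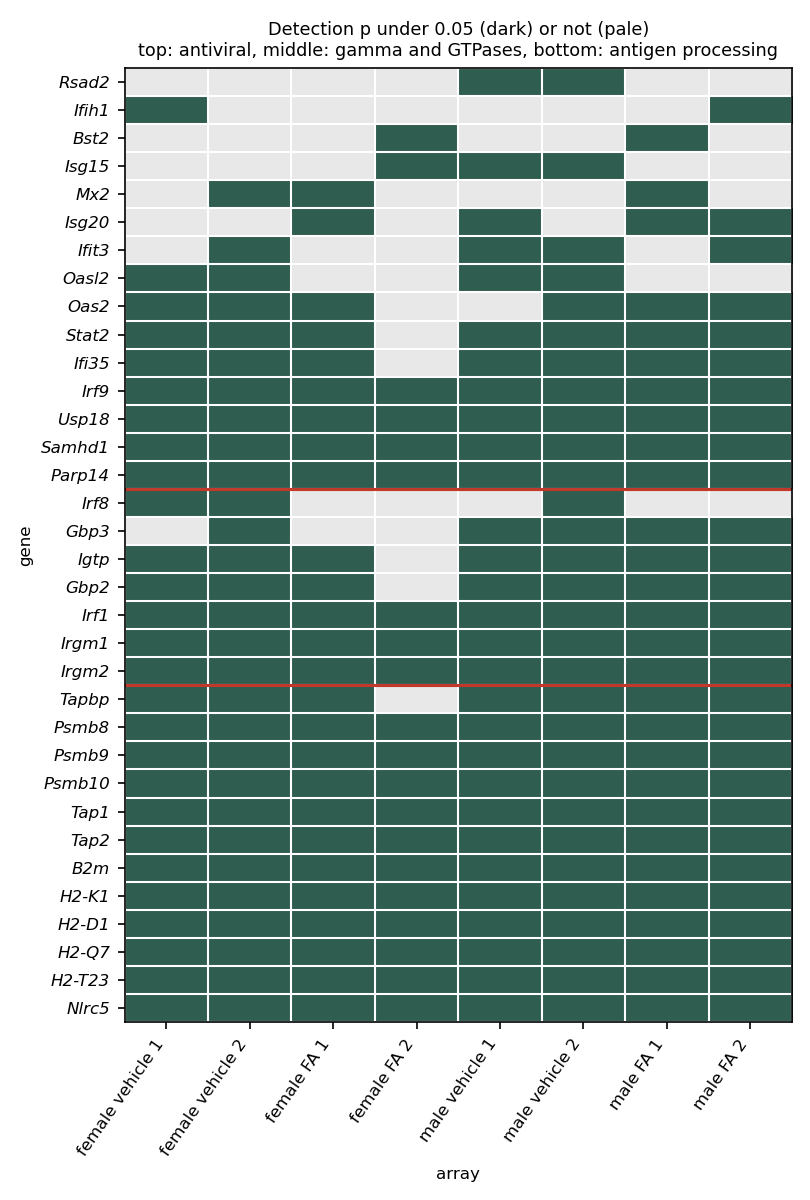
Detection of the 34 measured genes on each array; dark cells have a detection p under 0.05, and red lines separate antiviral genes (top), the gamma group and antigen processing (bottom). The antiviral rows hold most of the pale cells, and female FA replicate 2 holds pale cells for Stat2, Ifi35, Igtp, Gbp2 and Tapbp, which the 7 other arrays detect.

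In females alone, FA lowered 4 genes (5.46% of all genes tested were lower and 4.57% higher) and raised none. Irf1 changed by -2.52 ± 0.22 (adjusted p = 0.00105) and Psmb10 by -1.40 ± 0.26 (0.0189), while Igtp was at least 1.94-fold lower (0.00898) and Gbp2 at least 2.10-fold lower (0.0463). The Irf1 call held without any single array. The Igtp and Psmb10 calls were lost without female vehicle replicate 1, and the Gbp2 call without any array but female FA replicate 1. Leaving out female vehicle replicate 1 gave a count of 1 (2.29% of all genes called), and leaving out female FA replicate 1 a count of 11 (31.9%). With median scaling, which raised the median of all genes in females from -0.04 to 0.16, 3 of the 34 were lower and 1 higher. That scaling called 10.7% of all genes in females.

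In males alone, FA lowered 7 genes (4.17% of all genes tested were lower and 4.01% higher) and raised none. They were Irf1 (-2.51 ± 0.22, adjusted p = 0.00147), Psmb10 (-1.95, 0.00579), Psmb9 (-1.21, 0.0107), Rsad2 (at least 1.68-fold lower, 0.0171), Igtp (0.0196), Oasl2 (at least 3.69-fold lower, 0.0211) and Usp18 (-1.41, 0.0259). The Irf1 call held without any single array, and each of the other 6 was lost without at least 1 of the arrays, at adjusted p of up to 0.176. The count was 13 without either female FA array (15.9% of all genes called, against 8.19% with all arrays), 4 without male vehicle replicate 1 (2.77%), 2 without male FA replicate 1 (2.80%), and 1 without male vehicle replicate 2 (2.21%) or male FA replicate 2 (2.57%).

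The difference between the sexes was tested directly as the FA effect in males minus that in females, and none of the 34 genes passed in limma (0.0212% of all genes tested did). At an unadjusted p under 0.05 there were 4 of 34, against 6.56% of all genes, with adjusted p of 0.714 or more for each. Rsad2 gave -1.11 with a 95% interval from -1.83 to -0.39, Oasl2 -1.49 (-2.88 to -0.10), Isg15 -1.86 (-3.72 to -0.01) and Samhd1 -0.81 (-1.48 to -0.14). Irf1 gave 0.02, from -0.73 to 0.76. Without female FA replicate 1, which leaves the array that stood apart as the lone female FA sample, Isg15 (-2.89) and Bst2 (-2.23) passed, as did 12.1% of all genes. Without female FA replicate 2 they gave -0.83 and 0.02 and did not.

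Before any FA, in vehicle, none of the 34 genes differed between the sexes at the limma threshold (0.0743% of all genes tested did). At an unadjusted p under 0.05 there were 4 of 34, against 5.79% of all genes: Rsad2 (1.15), Oasl2 (1.51), Ifit3 (1.07) and Samhd1 (0.63), each higher in males and each an antiviral gene. Their adjusted p ran from 0.242 to 0.690. On the same arrays 9 of 10 fibroblast markers were higher in males at an unadjusted p under 0.05, with a median of 1.35, and the part of that in the antiviral values was not tested.

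Other genes of the pathway were taken from lists of textbook members. Beside the counts below, 11.4% of all genes tested fell over both sexes and 9.4% rose. Of 5 receptor genes measured, 2 rose and none fell, and both make up the interferon-gamma receptor: Ifngr1 rose by 0.92 ± 0.11 (adjusted p = 0.00180) and Ifngr2 by 0.47 ± 0.13. On every FA array Ifngr1 (10.04 to 10.24) was above every vehicle array (9.12 to 9.38). Of 10 signal transduction genes, Socs3, a feedback inhibitor of JAK kinases, rose by 0.96 ± 0.17 and Irf3, which switches on type I interferon genes, by 0.44 ± 0.11, and none fell. Of 9 sensors and adaptors, Eif2ak2, the kinase that halts translation on sensing viral RNA, fell by 1.10 ± 0.17 and Tbk1, the kinase that activates Irf3, rose by 0.53 ± 0.11.

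Of 21 other interferon-stimulated genes measured, 7 fell and none rose, with a median of -0.41, beside 11.4% and 9.4% of all genes tested. Uba7, which activates ISG15 for conjugation, fell by 1.37 ± 0.23, Cd274, the checkpoint ligand PD-L1, by 1.17 ± 0.23, and Trim21, an intracellular antibody receptor, by 0.57 ± 0.11. The chemokine gene Cxcl9 read 5.34 and 5.38 in female vehicle, 4.78 and 4.48 in female FA, 5.61 and 6.48 in male vehicle, and 4.51 and 4.67 in male FA, was detected on no FA array, and was at least 1.44-fold lower (adjusted p = 0.00990). Of 16 other genes of class I presentation, 7 fell and none rose, all 16 had a fitted change below 0, and the median was -0.43. Of all 9416 genes tested, 4868 had a fitted change below 0. Among the 7 that fell were Psmb6 (above), the proteasome activator gene Psme1 (-0.61 ± 0.12) and the non-classical chain H2-T10 (-0.94 ± 0.16). The lipid-presenting Cd1d1 was detected on no FA array and was at least 1.42-fold lower (adjusted p = 0.00854).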

How the data were processed

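Biotin-labelled RNA from 8 samples was hybridised to Illumina bead arrays. The deposited unprocessed table holds, per the file headers, a bead intensity and a detection p-value for 25697 probes per array. The authors' deposited matrix holds log2 values for 13247 probes, and the submitters' processing notes name limma without a version. Values were computed again with limma 3.58.1 in R 4.3.3: neqc (normexp background correction, offset 16, quantile normalization) on the unprocessed table gave the deposited log2 values to within 5.00e-09. A probe was kept if 2 or more arrays detected it at p under 0.05, which gave the 13247 of the matrix. Of these, 12476 had 1 gene symbol in the platform annotation, 0 had several and 771 had none; the brightest probe stood for each of 9416 genes, of which 2304 had several.

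A limma model (lmFit, eBayes) held a mean for each of the 4 groups, with 4 residual and 3.35 prior degrees of freedom and 5 contrasts, two-sided, adjusted by Benjamini-Hochberg over 9416 genes. Errors after ± are standard errors from this fit, except for differences between paired genes, where they come from the per-array differences on 4 FA and 4 vehicle arrays without a term for sex. The floor of an array is the lowest value of any probe it detected. Where a group had no detection, or its mean lay below its mean floor, a fold is given as "at least", against the higher of the floor and the measured value on each array. In data simulated for the FA effect over both sexes, 200 of 9416 genes were changed. The fit recovered 62% of changes of 1 and 94% of changes of 2 (log2), with 8 false calls. In the real data 1955 of 9416 genes were called, so these rates do not measure recovery there. Bead arrays give no read depth; 2 arrays per group limit the precision.

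The members, roles and lists were chosen with earlier results of these data known, and no list was tested as a set. Values on every array are given for members called in any contrast, the 3 largest changes of each role, and B2m, H2-K1 and H2-D1; pathway genes named are up to 4 called ones with the smallest p in each direction. Promoters shown are those of the 4 called members with the largest changes that hold a motif.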

Additional observations from a re-analysis of the deposited data

How the results depend on the processing

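Members called for FA over both sexes numbered 10 to 13 under the 10 alternatives that kept all arrays, against 13, and 6 to 20 on leaving out 1 array, where 10.7% to 38.1% of all genes were called. The alternatives that kept all arrays called 8.53% to 36.2% of all genes, against 20.8% in the main fit. With the replicate number as a block the count was 11, without Isg20 and Tapbp, and the other 11 calls were kept. Under the block 4 members were called in females (3 of the 4 above), the same 7 in males and 0 in the interaction. Of all genes, 8.89% were called in females under the block and 7.19% in males. Correlations of same-numbered arrays' deviations ran from -0.03 to 0.23, with 5 of 6 under 0.1, so the numbers were not taken as pairs. In the main fit, 5.46% of all genes tested were lower in females and 4.57% higher. In females the count of 4 was 7 without background correction (16.02% of all genes called). It was 7 among genes detected on all 8 arrays (22.1%, with 18 members in that fit). The count in females was 7 with values set to the array floor (10.7%) and 1 when only the female arrays were fitted (2.05%). On leaving out 1 array it ran from 1 to 11. In males the count of 7 (8.19% of all genes called) was 12 with array weights (15.4%) and 12 with only the arrays of that sex (13.6%). The interaction count was 0, and 0 to 2 on leaving out 1 array, and the sex difference in vehicle was 0 under every alternative run. The antiviral median of -0.22 ran from -0.36 to 0.00 and the antigen-processing median of 0.06 from 0.01 to 0.08 on leaving out 1 array. Median scaling moved the median of all genes from -0.04 to 0.16 in females and from -0.01 to -0.11 in males. It called 4 and 6 members, beside 10.7% and 8.46% of all genes. No named member's called change turned its sign under an alternative. The cause of the differences between alternatives was not tested. A slide or scan date as a block was not run, since the file headers give none. With undetected genes at or near the floor, the size of a change is limited by signal over background for Oasl2, Ifit3, Rsad2 and Isg20.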
